A study of Glycine max with 6 samples.

Results

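PIP2-6 and SPCP1 are the only aquaporin genes that the annotation names on the soybean cDNA array used here. They were represented by 9 spotted clones, 4 of PIP2-6 and 5 of SPCP1, of 1091 clones with a gene name and 18361 clones in all. Aquaporins were recognised by symbol or synonym, so any among the clones without a gene name were not found. The study itself listed an aquaporin of the PIP1 group as more than 2-fold higher in roots of its Fe-inefficient line under Fe limitation. That came from other arrays than those analysed here. A clone was counted when its row carried exactly 1 gene symbol and that symbol was PIP2-6 or SPCP1. All 9 belong to the root cDNA sets Gm-r1021 and Gm-r1083. The clones of each gene were kept apart, because a spotted cDNA can also bind transcripts of close relatives, and aquaporins form a large family in soybean.

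Aquaporins are membrane channels that let water, and in some cases small uncharged solutes, pass through a membrane along its gradient. PIP2-6, also listed as GmPIP2;6, is a plasma membrane intrinsic protein, the class that lies in the cell's outer membrane and carries much of the water that roots take up from cell to cell. SPCP1, also listed as GmTIP1;3 and GmTIP1;7, belongs to the tonoplast intrinsic proteins, which lie in the membrane of the vacuole and serve water exchange between vacuole and cytoplasm. Both classes are typically abundant in roots.

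Each array compared root RNA of a pair of near-isogenic lines, the Fe-efficient Clark and the Fe-inefficient IsoClark. IsoClark carries the Fe-inefficient trait in a Clark background after repeated backcrossing, and both lines grew in hydroponic solution with sufficient Fe. There were 3 biological replicates, each on 2 arrays with the dyes Cy3 and Cy5 exchanged, so 6 arrays in all, with 90 ug of RNA per labelling. The study's methods describe each sample as roots pooled from several plants of the same hydroponic unit, so single plants were not measured. The comparison asked whether the lines differ in transcript level when Fe does not limit growth. Every ratio below is IsoClark over Clark on the log2 scale, so that 1 is a 2-fold higher level in IsoClark and a negative value is a lower level there. The 2 arrays of a replicate were averaged before any test. Arrays are named by replicate and by the dye that IsoClark carried, R2-Cy5 being the replicate 2 array with IsoClark labelled in Cy5. For R2-Cy5 the dye field and the labelling protocol of the labels name opposite dyes, and the dye field was followed.

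Across the whole array, 18.9% to 44.2% of the cDNA spots of an array were flagged as poor by the image program and left out, and 76.98% to 98.7% of the cDNA spots lay above background in a given channel. Line ratios of all clones hardly tracked each other between the arrays of a swap pair, with Pearson's r of 0.108, -0.062 and -0.079 in replicates 1, 2 and 3. The R2-Cy5 array stood apart in spot brightness, correlating with the others at 0.334 on average, where the rest reached 0.593 to 0.706. Transcripts that mark seed, green tissue and nodules showed no line difference that passed the limma test. Of the seed and cotyledon markers 8 of 12 genes were tested and 2 of these lay below 0, beside 49.3% of all tested clones. Their median was 0.079. The highest, GY5, read -0.13, 1.69 and 0.85 in replicates 1, 2 and 3, a mean of 0.80 ± 0.91 (SD, n = 3). Of the green tissue markers 3 of 7 were tested, with a median of 0.049, and of the nodule markers only N-36A, at 0.058 ± 0.61 (SD, n = 3).

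With the dye fields as given, the mean of the PIP2-6 clones lay slightly below 0 in each replicate, and SPCP1 lay on both sides of 0. Neither passed a test. PIP2-6, averaged over its 4 clones, gave -0.012, -0.17 and -0.20 in replicates 1, 2 and 3, a mean of -0.13 ± 0.10 (SD, n = 3), or 0.915 of the Clark level. All 3 replicate values were below 0, and the exact two-sided sign-flip permutation test gave p = 0.25, the smallest that 3 replicates allow, so the test could not pass. The clones did not share that sign in replicate 1, where they read 0.44, 0.097, 0.080 and -0.67, the last on a single array. By array, the PIP2-6 mean was above 0 on R1-Cy5 (0.24) and R2-Cy3 (0.058) and below 0 on the others. The sign in replicate 2 rests on the dye field of R2-Cy5, since with that array turned PIP2-6 gave 0.15 there and a mean of -0.022. By the dye fields, the authors' ratios held IsoClark over Clark on every array but R3-Cy3. With R3-Cy3 turned, replicate 3 gave 0.073 and the mean was -0.035. SPCP1, averaged over the 3 clones measured in every replicate, gave -0.16, -0.048 and 0.17, a mean of -0.015 ± 0.17 (SD, n = 3) with values on both sides of 0 (exact sign-flip permutation p = 1). The ratios of the plasma membrane and the tonoplast aquaporin overlapped between replicates. PIP2-6 minus SPCP1 was 0.15, -0.12 and -0.37, a mean of -0.11 ± 0.26 (SD, n = 3), with an exact sign-flip permutation p of 0.75.

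Clone by clone, 0 of the 7 tested aquaporin clones passed an adjusted p of 0.05 in limma, where 0% of 13430 tested clones did. At an unadjusted p of 0.05 the count was again 0 of 7, beside 5.53% of all tested clones. The 7 means lay between -0.29 and 0.043. None reached a 2-fold difference, which 0.0298% of all tested clones did. All 7 of the 95% intervals lay inside 2-fold in either direction, as did 97.9% of the intervals over the whole array. The mean was below 0 in 4 of 7 clones, beside 49.3% of all clones, below 0 in all 3 replicates in 1 clone (13.3% of all) and above 0 in all 3 in 0 clones (15.8% of all). For scale, the median size of a line ratio over all tested clones was 0.12 and the median SD between replicates 0.22. The other 2 clones, both of SPCP1, had no usable spot in 1 replicate and were not tested. Both lay above background on enough arrays to pass the filter on dim clones.

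**Figure D1:**
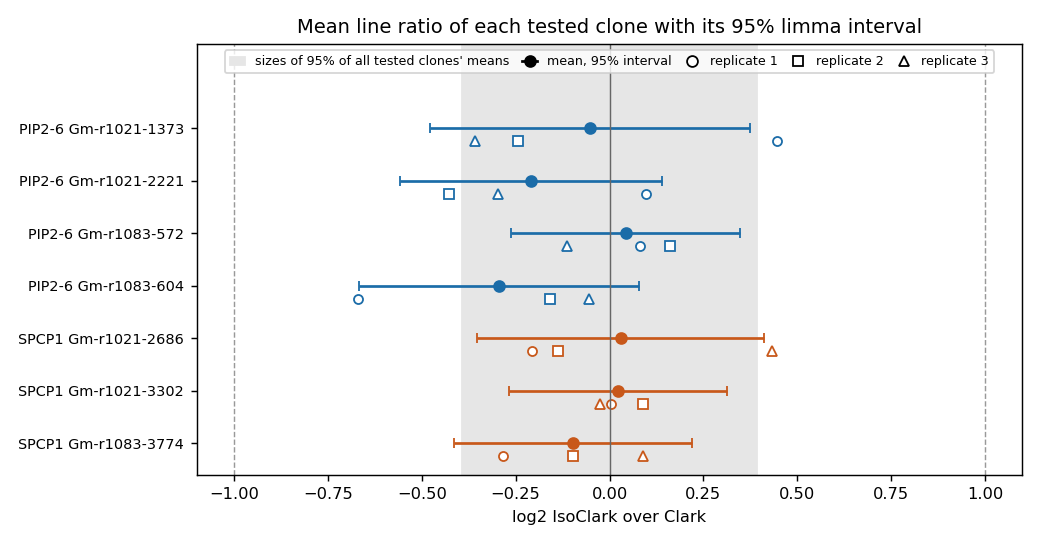
Mean log2 IsoClark over Clark (horizontal axis) of the 7 tested clones, PIP2-6 in blue and SPCP1 in orange, as filled points with 95% limma intervals; the open symbols under each are its 3 replicate values and the grey band spans the sizes reached by 95% of all tested clones, up to 0.39. Every interval includes 0 and stays inside the dashed 2-fold lines.

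Most aquaporin readings had signal above background, but no clone had a usable spot on all 6 arrays. Of 54 aquaporin spots, 9 clones on 6 arrays, 14 were flagged as poor, 4 of 24 for PIP2-6 and 10 of 30 for SPCP1. Another 3 spots carried the image program's flag for an empty spot and were kept as usable. They were Gm-r1021-1373 on R3-Cy5 (-0.36), Gm-r1021-1022 on R2-Cy5 (0.57) and Gm-r1021-2686 on R1-Cy3 (-0.35). Spot signal was above background in 104 of 108 channel readings, in 48 of 48 for PIP2-6 and 56 of 60 for SPCP1, and the signal was 1.94 to 77.3 times the local background. Saturation occurred in 4 readings, all of PIP2-6. Of the 21 replicate values of the tested clones, 8 rest on a single array, a share near the 44.1% found for all tested clones. A dye effect does not cancel in those 8 values.

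Of the PIP2-6 clones, Gm-r1021-1373 varied most between replicates. In replicate 1 it read 0.22 with IsoClark in Cy3 and 0.67 with IsoClark in Cy5. In replicate 2 the single usable array read -0.24, and in replicate 3 both arrays read -0.36. The R3-Cy5 spot carried the empty flag. The replicate values 0.44, -0.24 and -0.36 thus fall on both sides of 0, with replicate 1 high and the others low, and the mean was -0.052 ± 0.43 (SD, n = 3; 95% interval -0.48 to 0.37, limma adjusted p = 0.965).

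Gm-r1021-2221 read 0.23 and -0.032 on the replicate 1 arrays, -0.43 on the usable replicate 2 array, and -0.33 and -0.26 on the replicate 3 arrays. Replicate 1 was again the high one, at 0.097, and the mean was -0.21 ± 0.27 (SD, n = 3; 95% interval -0.56 to 0.14, limma adjusted p = 0.801). The replicate 1 spot with IsoClark in Cy5 was saturated in the IsoClark channel. Without replicate 1 the mean was -0.36 and without replicate 2 it was -0.0996.

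Gm-r1083-572 stayed closest to 0 among the PIP2-6 clones. It read 0.089 and 0.071 in replicate 1, 0.25 and 0.073 in replicate 2, and -0.11 on the usable array of replicate 3. Its mean was 0.043 ± 0.14 (SD, n = 3; 95% interval -0.26 to 0.35, limma adjusted p = 0.958), the only positive mean among the 4 PIP2-6 clones.

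Gm-r1083-604 had the lowest mean of all 9 clones and was the only one below 0 in every replicate. It read -0.67 on the usable replicate 1 array, 0.17 and -0.48 in replicate 2, and -0.20 and 0.090 in replicate 3. Replicate 1 carried most of the mean of -0.29 ± 0.33 (SD, n = 3; 95% interval -0.67 to 0.079), and the limma p was 0.105 before and 0.796 after adjustment. Without replicate 1 the mean was -0.11. On 2 arrays the 604 spot was saturated, on the R2-Cy3 array in both channels, and on the R1-Cy5 array, which was flagged as poor and left out. The 0.17 is therefore not an exact ratio, and with saturated spots left out the mean was -0.40 (limma adjusted p = 0.789).

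Among the SPCP1 clones, Gm-r1021-3302 gave the most even readings of all 9. It read -0.035 and 0.042 in replicate 1, 0.089 on the usable array of replicate 2 and -0.025 on that of replicate 3. The mean was 0.023 ± 0.059 (SD, n = 3; 95% interval -0.27 to 0.31, limma adjusted p = 0.983).

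Gm-r1083-3774 read -0.44 and -0.12 in replicate 1, -0.096 on the usable array of replicate 2, and 0.059 and 0.12 in replicate 3. The mean was -0.097 ± 0.19 (SD, n = 3; 95% interval -0.41 to 0.22, limma adjusted p = 0.890). Replicate 1 was the low one and replicate 3 the high one. Without replicate 1 the mean was -0.0030 and without replicate 3 it was -0.19.

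Gm-r1021-2686 lay near background on several arrays, and 3 of its 12 channel readings were not above it. It read -0.35 and -0.068 in replicate 1, -0.14 on the usable array of replicate 2, and -0.066 and 0.93 in replicate 3. The -0.35 came from a spot with the empty flag. The 0.93, the usable aquaporin reading furthest from 0, came from the array with IsoClark in Cy5, where the Clark channel was not above background at 1.98 times its local background and the IsoClark channel stood at 2.80 times. The mean was 0.029 ± 0.35 (SD, n = 3; 95% interval -0.35 to 0.41, limma adjusted p = 0.983).

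The 2 untested SPCP1 clones had few readings. Gm-r1021-1022 read 0.33 on its usable replicate 1 array and 0.22 and 0.57 in replicate 2, with no usable spot in replicate 3. Its 3 usable readings were all above 0, the 0.57 from a spot with the empty flag. Gm-r1083-147 read -0.34 and -0.0016 in replicate 1 and 0.41 on the usable array of replicate 3, with no usable spot in replicate 2, so its replicate values lay on both sides of 0. With both clones included, the SPCP1 mean moved from -0.015 to 0.075.

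**Figure D2:**
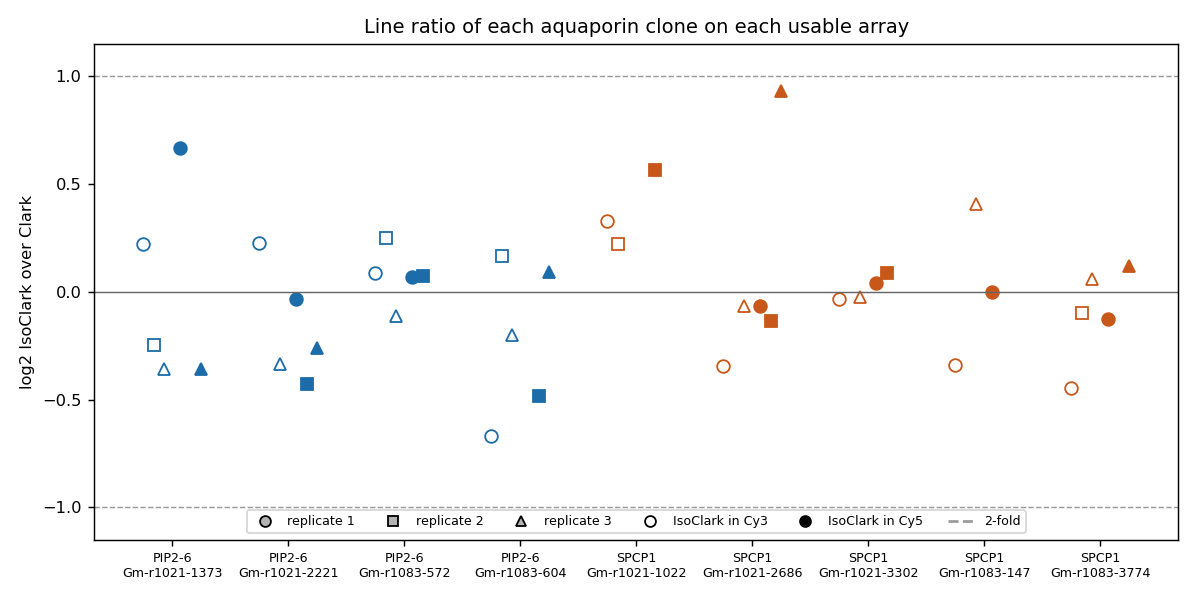
Log2 IsoClark over Clark (vertical axis) of each PIP2-6 clone (blue) and SPCP1 clone (orange) on every array where its spot was usable; the symbol shape is the replicate and open or filled shows IsoClark in Cy3 or Cy5. All 40 readings lie within 2-fold (dashed lines), the highest being 0.93 for Gm-r1021-2686.

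To see how far clones of 1 gene read alike, their ratios were compared over the arrays they share. Among the 6 pairs of PIP2-6 clones, all on 4 shared arrays, Pearson's r ran from -0.84 to 0.69 with a median of 0.24. The lowest value joined Gm-r1021-1373 with Gm-r1083-604, and the highest joined Gm-r1021-1373 with Gm-r1021-2221. Only 2 pairs of SPCP1 clones shared as many arrays, with r of 0.42 and 0.74. Pairs made of 1 clone of each gene had a median of -0.44 over 10 pairs. Over pairs of the 158 named clones usable on all 6 arrays the median was 0.010. With so few arrays these values are a description only, and the points share the arrays and their dyes.

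Both arrays of a swap pair were usable in 15 of 27 cases. The sign of the line ratio was the same on both in 10 of these 15 (66.7%), beside 48.8% for all tested clones, and the median difference between the arrays was 0.278 in size, beside 0.320. For PIP2-6 the sign was the same in 5 of 8 pairs and for SPCP1 in 5 of 7. In all 7 SPCP1 pairs the ratio was higher with IsoClark in Cy5 than in Cy3, by 0.061 to 0.995. One of them, Gm-r1021-1022 in replicate 2, uses R2-Cy5 and would go the other way with that array turned, and the other 6 do not use it. The pairs share the slides of 3 replicates and are not repeats of each other. No such share was computed over all tested clones. The 0.995 is of Gm-r1021-2686 in replicate 3, where on each array a channel was not above background. With poor spots kept, so that every clone had all 6 arrays, the Cy5 over Cy3 ratio of the 5 SPCP1 clones lay on both sides of 0, from -0.091 to 0.15, and 0 of the 9 aquaporin clones passed in limma (smallest adjusted p = 0.736). In the 8 PIP2-6 pairs the difference went both ways, from -0.65 to 0.45. Without the poor spots no aquaporin clone had all 6 arrays, so none entered the dye test across clones.

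**Figure D3:**
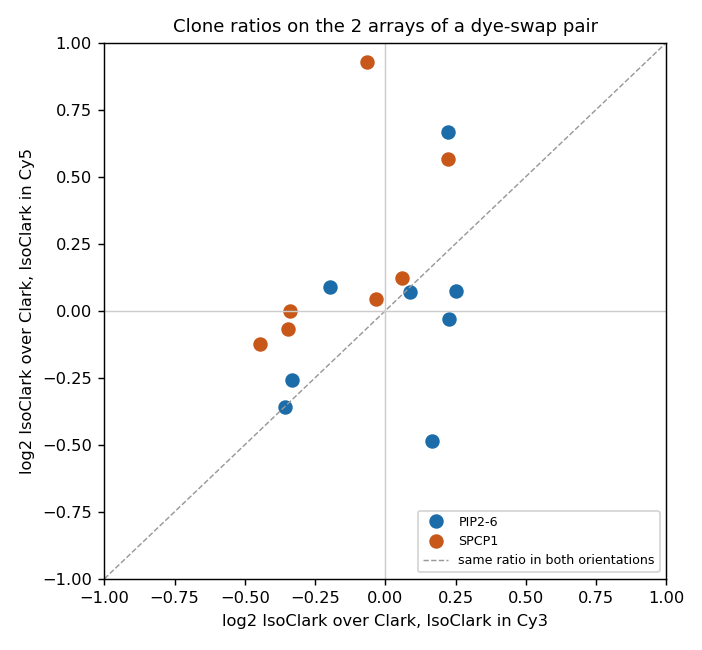
Log2 IsoClark over Clark of a clone with IsoClark in Cy3 (horizontal axis) and with IsoClark in Cy5 (vertical axis) for the 8 PIP2-6 (blue) and 7 SPCP1 (orange) swap pairs usable on both arrays. All 7 SPCP1 points lie above the dashed line of equal ratios, but they share slides, and the share over all tested clones was not computed.

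Brightness says where a spot lies in the range of its array, given here as the share of cDNA spots in the same channel that were dimmer, poor spots included. It does not rank the clones as transcripts, since the amount of DNA in a spot and the length of its insert also set it. Over the 108 readings the median share was 60.4%. On a given spot IsoClark and Clark stood close to each other, with a median gap of 3.32 points and r of 0.953 over the 54 spots. The widest gap, 29.8 points, was on the poor spot of Gm-r1021-2686 on the R2-Cy3 array.

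Between arrays the standing of the same clone varied widely. The ranges here run from lowest to highest array and are not on the same measure as the median gap between lines. Averaged over both lines, the range over the 6 arrays had a median of 51.1 points for the 9 clones, beside 43.4 for all tested clones. PIP2-6 clone Gm-r1021-1373 moved most. With IsoClark in Cy3 and in Cy5, its share was 14.3% and 81.2% in replicate 1, 96.7% and 32.6% in replicate 2, and 99.2% and 21.7% in replicate 3. This range of 84.9 points is wider than that of 97.6% of all tested clones. SPCP1 clone Gm-r1021-2686 moved least, by 28.1 points, and stayed at or below 43.0% on every array. Its largest gap between the lines on an array, 29.8 points on a poor spot, was wider than that range.

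Some clones moved together in brightness. Over the 6 arrays Gm-r1021-1373 had r of 0.93 with Gm-r1083-604 and 0.73 with Gm-r1021-2221, and Gm-r1021-2221 had r of 0.67 with Gm-r1083-604. The remaining PIP2-6 clone, Gm-r1083-572, went the other way, with r of -0.39, -0.58 and -0.45 with those 3. Among SPCP1 clones, Gm-r1021-1022 and Gm-r1021-3302 had r of 0.95, and Gm-r1021-2686 and Gm-r1083-3774 had r of -0.83. These groupings did not follow the genes, since PIP2-6 clone Gm-r1021-2221 had r of 0.84 and 0.85 with the SPCP1 clones Gm-r1021-1022 and Gm-r1021-3302. The median over all pairs of named tested clones was 0.021.

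Brightness and line ratios were also set beside the position on the slide, whose part in them was not tested. Values with each block normalized apart are given with the ratios. The array is printed in 48 blocks, and the 9 clones lie in 9 different blocks of 386 to 392 cDNA spots. Over the 6 arrays the brightness of a clone and the mean of its block had r of 0.29 to 0.92 for the 9 clones. The median for all tested clones was 0.77, and 4 of the 9 lay above it. Gm-r1021-1373 and Gm-r1083-604, which moved together, lie in neighbouring blocks of print column 2, in block rows 8 and 9. Gm-r1021-1022 and Gm-r1021-3302 lie side by side in block row 11. Nearness did not always go with likeness, since Gm-r1083-147 and Gm-r1021-1022, in rows 10 and 11 of print column 3, had r of -0.22. Gm-r1083-572 and Gm-r1021-2686, with r of 0.73 although of different genes, both lie in print column 4.

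**Figure D4:**
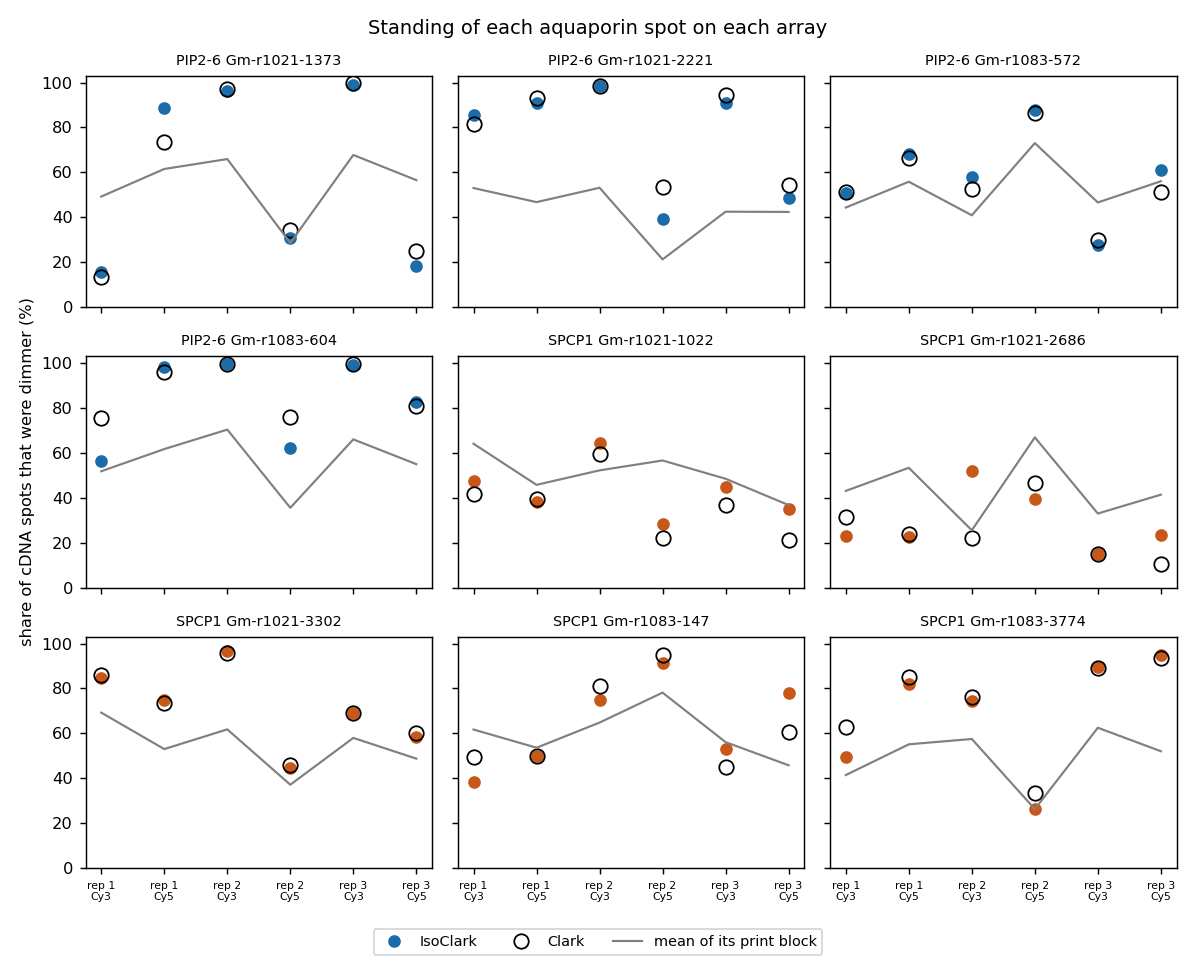
Share of cDNA spots that were dimmer than the aquaporin spot (vertical axis, percent) on each of the 6 arrays (horizontal axis, replicate and dye of IsoClark), for IsoClark (filled) and Clark (open circles), with the mean of the clone's print block as a grey line. The lines differ by a median of 3.32 points on a spot. Gm-r1021-1373 ranges over 84.9 points between arrays, and its largest gap between the lines on an array is 15.0 points.

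Line ratios had the sign of their block in some readings and not in others. After normalization over the whole array, the median ratio of a block on an array ranged from -0.63 to 0.48. For Gm-r1083-604, the lowest aquaporin clone, the mean of -0.29 stood beside -0.21 for the median of its block, read over the same arrays. In replicate 1, where the clone read -0.67, its block read -0.44. For Gm-r1021-2221 the clone mean of -0.21 stood beside -0.098 for its block, and for Gm-r1083-572 the clone mean of 0.043 beside 0.11. Several replicate values had the opposite sign to their block. In replicate 1 Gm-r1021-1373 read 0.44 in a block at -0.36, and Gm-r1021-2686 read -0.21 in a block at 0.14. In replicate 2 Gm-r1021-3302 read 0.089 in a block at -0.26. The mean had the sign of its block in 6 of the 7 tested clones and in 4 of 4 PIP2-6 clones. The other was SPCP1 clone Gm-r1021-3302, at 0.023 beside -0.072 for its block. The share with the sign of the block was not computed over all tested clones, so these counts describe the aquaporin clones only. Over the 4 PIP2-6 clones, the block medians averaged -0.088 and PIP2-6 lay -0.040 from them. For the 3 tested SPCP1 clones the block medians averaged -0.022. When each block was normalized apart (print-tip loess), PIP2-6 gave 0.00060 and SPCP1 0.0042.

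**Figure D5:**
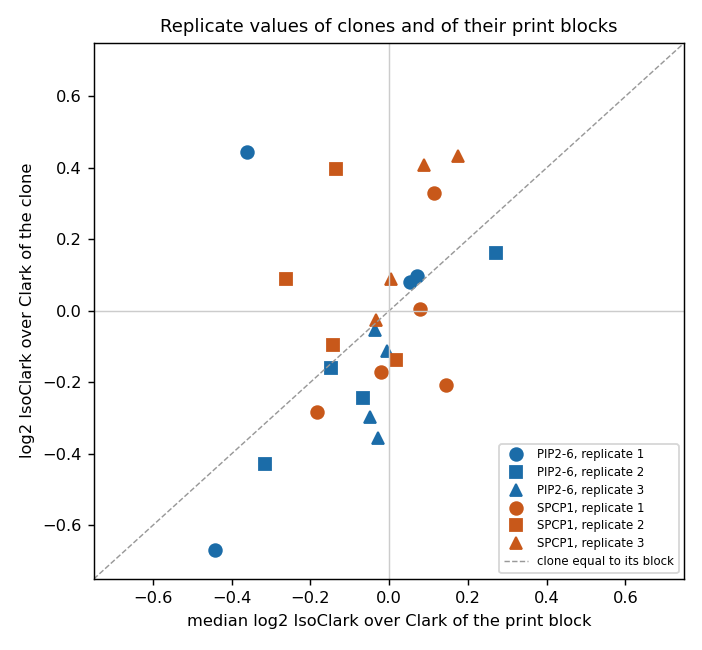
Log2 IsoClark over Clark of each clone in each replicate (vertical axis) against the median ratio of all usable cDNA spots in its print block on the same arrays (horizontal axis), PIP2-6 in blue and SPCP1 in orange. The lowest point, Gm-r1083-604 in replicate 1 at -0.67, lies in the block with the lowest value shown, -0.44.

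The ratios that the authors deposited gave a further reading of the same spots. Turned to IsoClark over Clark, they had the sign of the scanner-based ratio on 38 of the 40 usable aquaporin spots, with r of 0.755 and a median difference of 0.086 in size. Part of this was built in, since the columns' direction and the row-to-clone tie were set by correlation with the scanner ratios. The share with the same sign over all spots was not computed. Deposited and scanner ratios parted most for Gm-r1021-1373 on the R3-Cy5 array, a spot with the empty flag, at -1.31 deposited and -0.36 here. For Gm-r1021-2686 on that array the deposited value was 0.083 against 0.93 here. The highest deposited value of any aquaporin spot, 1.79, was of Gm-r1021-2686 on the R2-Cy3 array, whose spot was flagged as poor and not used here. From the deposited ratios PIP2-6 had a mean of -0.13 and SPCP1, over all 5 clones, a mean of 0.069.

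A few other membrane transport genes are named on the array, and their ratios were not tested against those of the aquaporins. DMT1, which encodes a divalent metal transporter, read -0.29, -0.40 and -0.046, with a mean of -0.25 ± 0.18 (SD, n = 3). DMT1 thus lay below 0 in every replicate, as did 13.3% of all tested clones. Only 1 of its 2 clones was tested, and it did not pass (limma adjusted p = 0.796). Another 6 transport genes, picked by their symbol, had a median of 0.020, beside 0.0031 for all tested clones, with 3 below 0 and 0 passing the limma test. SUT1, a sucrose transporter, was the lowest at -0.57 ± 0.58 (SD, n = 3), and SCA1, a calcium ATPase, the highest at 0.26 ± 0.23 (SD, n = 3). By symbol or synonym, the annotation named 0 aquaporin genes besides PIP2-6 and SPCP1, and clones without a gene name could not be searched.

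The genes whose array profile was most like each aquaporin were picked from 158 named clones usable on all 6 arrays, by Pearson's r of the 6 line ratios with the gene's mean. For PIP2-6 they were UGD1, which makes UDP-glucuronate for cell wall sugars, with r of 0.891, the metallothionein gene MT2 with 0.885, and the lipoxygenase gene LOX7 with 0.83. For SPCP1 they were LOC732582 with r of 0.922, LOC547628 with 0.908, and XTH1, a cell wall xyloglucan enzyme, with 0.774. The highest of 158 values over 6 arrays will be large in any case, and the SPCP1 profile is set mostly by 1 array, the R3-Cy5 array, where its mean was 0.53 from 2 clones.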

How the data were processed

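Spotted 2-colour cDNA arrays of soybean roots were analysed, 6 arrays as 3 dye-swap pairs. Per the file headers, the authors used ImaGene version 6.1.0 and deposited linear, unnormalized spot intensity values with a flag. The authors also deposited log2 ratios for 19200 rows, whose centring and exact scale are unknown. By the dye fields and the scanner values, 5 of their columns hold IsoClark over Clark. That of the R3-Cy3 array (replicate 3, IsoClark in Cy3) holds Clark over IsoClark. Whether this column or the dye field of its array is reversed cannot be told from these values. Column medians ran from -0.28 to 0.11. They served as an alternative only. Gene names are given per row (1158 rows with 1 symbol, 13 with several, 18029 with none). Rows were tied to clones by clone number plus 1 shift per set, with r of 0.759 to 0.855 to the scanner values against at most 0.182 at the next best shift.

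Background was corrected by normexp (offset 50) on signal mean and background median, and arrays were normalized one by one with limma's global loess (limma version 3.58.1 under R version 4.3.3), with poor spots and positions printed without cDNA at weight 0. Spots that the image program flagged as empty were kept. Ratios were turned by the dye label. On the R2-Cy5 array the label protocol names the opposite dyes, and turning it was an alternative. Clones above background (a mean signal beyond the local background median by 2 of its SD) on at least 3 arrays and measured in all 3 replicates were tested against 0 with lmFit and eBayes, Benjamini-Hochberg at 0.05. Gene means over tested clones were compared by exact sign-flip permutation. With 3 replicates, their number limits the precision, and p-values measure the spread between replicate pools, which includes array noise. Every aquaporin clone is named, with the transport genes highest and lowest and the 3 genes most alike per aquaporin. Of the transport list only DMT1 had a recognisable name, and 6 genes were added by symbol. Members and lists were chosen with earlier results of these data known.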

Additional observations from a re-analysis of the deposited data

Results flagged for a closer look

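Among the 18 sets of array values examined for a single far reading, 2 had one. The limit used is Dixon's 95% critical value, which chance passes in about 1 in 20 sets. SPCP1 clone Gm-r1021-2686 read 0.93 on the R3-Cy5 array, against -0.35 to -0.066 on its other 4 usable arrays. The SPCP1 mean over tested clones read 0.53 on the same array, against -0.27 to -0.010 on the other 5, and the 0.93 is 1 of the 2 readings behind it. The Clark channel of that spot was not above background, and the deposited ratio there was 0.083.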

How the results depend on the processing

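No alternative gave an aquaporin clone past the threshold, and the smallest adjusted p of any of the 7 clones over all alternatives was 0.656. The count of all clones passing the line test stayed at 0 in 18 of 19 alternatives, and was 5, none of them an aquaporin, with the quantification day added as a term. It was 0 without any 1 replicate. The fit of 6 arrays with a dye term and the replicate block gave -0.069 for PIP2-6, -0.015 for SPCP1 and -0.054 for their difference, with 0 clones passing among 13061. The replicate numbers pair arrays of the same RNA by design, and the correlation within replicates was -0.0031.

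PIP2-6 stayed below 0 in all but print-tip loess, at 0.00060, but its size did not hold. Its mean ranged from -0.19 to -0.090 without 1 replicate, and was -0.012 on the day of replicate 1, -0.022 with R2-Cy5 turned, -0.035 with R3-Cy3 turned, -0.040 in the unturned deposited ratios, -0.055 without R2-Cy5 and -0.066 with no flags used. SPCP1 turned positive with print-tip loess (0.0042), with no flags used (0.10), in the deposited ratios with 1 column turned (0.069) or none turned (0.034), and over all measured clones (0.075), and without 1 replicate it ranged from -0.11 to 0.059. The difference ranged from -0.25 to 0.016 without 1 replicate, was 0.15 on the day of quantification of replicate 1, and 0.042 without the R2-Cy5 array. The day of replicates 2 and 3 equals the result without replicate 1.

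Single clones changed sign as well. With print-tip loess, Gm-r1021-1373 gave 0.12, Gm-r1083-572 -0.069, Gm-r1021-2686 -0.16 and Gm-r1083-3774 0.040. Gm-r1021-1373 gave 0.014 with the replicate block, 0.072 with the day as a term, 0.067 with the R3-Cy3 array turned, 0.44 on the day of replicate 1, and -0.30 to 0.10 without 1 replicate. Without replicate 2 it gave 0.044. Gm-r1021-2221 gave 0.077 with the R2-Cy5 array turned and 0.097 on the day of replicate 1. Gm-r1083-572 gave -0.016 without replicate 2. Gm-r1021-2686 gave -0.030 with the day as a term, -0.070 with median centring, -0.21 on the day of replicate 1 and -0.17 without replicate 3. Gm-r1021-3302 gave -0.087 with normexp on the signal median, -0.030 in the deposited ratios, turned or not, -0.037 with the R2-Cy5 array turned and, without 1 replicate, -0.010 to 0.046. Without 1 replicate, Gm-r1021-2221 ranged from -0.36 to -0.0996, Gm-r1083-604 from -0.41 to -0.11 and Gm-r1083-3774 from -0.19 to -0.0030. The causes were not tested. The dye test passed 0 of 2618 clones in limma (321 at an unadjusted p of 0.05) and 37 with median centring. No aquaporin clone entered the dye test in either setting, so none could pass. Without 1 replicate it passed 0 to 35 clones, and of the 1 to 4 aquaporin clones that then entered 0 passed (smallest adjusted p = 0.432).

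Taking replicate values only from pairs with both arrays left no aquaporin clone. Turning every deposited column by its dye label was not run, since the columns do not all hold Cy5 over Cy3. Leaving out the R2-Cy5 array, keeping spots above background in both channels, all measured clones and the unturned columns were chosen after seeing the data. For the dim Gm-r1021-2686, nearness to background limits what its ratio can show.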
